A study of Neogale vison with 6 samples.

Results

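The sphingolipid and ceramide synthesis enzymes described here are a set of 10 genes, SPTLC1, SPTLC2, CERS2, CERS5, CERS6, DEGS1, SGMS1, SGMS2, UGCG and SMPD1. Members were found by their gene symbol in the table of raw counts. SPTLC1 has no row under that symbol and could not be measured, so 9 of the 10 genes, of 24526 genes in the table, form the set. All 9 passed the filter on low counts, which left 12148 genes for testing.

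Mv1Lu cells are an epithelial line derived from the lung of mink. Poly(A) RNA was sequenced from 3 libraries of untreated cells (control) and 3 libraries of cells subjected to cholesterol depletion (CD). CD lasted 16 h and combined 50 μM lovastatin, a statin that blocks cholesterol synthesis, with 50 μM mevalonate in medium containing 10% LPDS, a serum from which lipoproteins were removed. Control cells received none of these, so the statin, the mevalonate and the change of serum cannot be told apart. Nothing in the labels says whether the 3 replicates of a group were separate cultures, and the p-values then measure only the spread between these libraries, which may be technical.

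Sphingolipids are built on a long-chain base that serine palmitoyltransferase makes from serine and palmitoyl-CoA in the endoplasmic reticulum. Ceramide synthases add a fatty acyl chain to the base, a desaturase turns the product into ceramide, and ceramide is then carried to the Golgi to become sphingomyelin or glucosylceramide. Sphingomyelin packs with cholesterol in the plasma membrane, and enzymes of the lysosome and other membranes return it to ceramide.

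The libraries held between 13473820 and 18633764 reads on genes. CD libraries varied more among themselves than control libraries did, with a biological coefficient of variation of 0.213 against 0.0852. CD replicate 3 stood apart from the other CD libraries on the second principal component (12.9% of the variance, after 80.1% on the first), with 9.37% unmapped reads against 3.54% and 4.33% and with 15884 genes counted against 15109 and 15059. Control replicates 1, 2 and 3 had 18.4%, 13.6% and 4.25% unmapped reads, so that the highest shares were in control libraries. The treatment was visible in HMGCS1, an early enzyme of the mevalonate pathway, which rose by 3.43 on the log2 scale, and in INSIG1, a sterol-regulated brake on the pathway, which rose by 1.67. Of 9 epithelial markers, KRT8 and KRT18 were absent by symbol, KRT19 had 6164 to 18352 counts, and EPCAM and CDH1 stayed at or under 6 counts in every library. The summed level of the epithelial markers in the table was 1090 to 1215 CPM (counts scaled to the reads on genes, per 1000000 reads, after TMM scaling) in control and 585 to 670 CPM in CD. Most of that sum was KRT19, which fell by 1.03 on the log2 scale (edgeR FDR 0.000274), while CLDN4, at 7 to 12 counts in control and 95 to 131 in CD, rose by 3.55 (edgeR FDR 9.61e-06). Among markers of other cells, the fibroblast sum was 310 to 387 CPM in control and 183 to 233 CPM in CD, and the endothelial sum was 206 to 221 and 75.9 to 124 CPM, with CLDN5 at 0 and PECAM1 and CDH5 at or under 5 counts. Most of the endothelial sum was TEK, which fell by 1.08 on the log2 scale (edgeR FDR 0.000527), while VWF, at 0 to 3 counts in control and 14 to 27 in CD, was called higher (edgeR FDR 0.000882). The leukocyte sum was 5.57 to 6.67 and 21.1 to 26.0 CPM, with CD68 and CSF1R higher in CD by 1.85 and 2.16 on the log2 scale (edgeR FDR 2.49e-05 and 0.000312), PTPRC at or under 1 count and CD79A and LYZ at 0. The alveolar type II sum was 63.6 to 82.4 and 88.6 to 134 CPM, nearly all of it ABCA3, which rose by 0.70 (edgeR FDR 0.00802), with SFTPB and SFTPC at 0. The part of these markers in the results was not tested.

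The set changed little under CD. CERS2 and SMPD1 rose, each 1.26-fold, no member fell, and SPTLC2, CERS5, CERS6, DEGS1, SGMS1, SGMS2 and UGCG were not called at an FDR of 0.05 by edgeR's quasi-likelihood test. The called members make 22.2% of the set, and of all genes tested 47.7% were called, 24.8% as higher and 22.9% as lower. At an unadjusted p under 0.05 there were 3 members, CERS2, SGMS1 and SMPD1, all higher in CD, and DESeq2 and limma-voom likewise called no member lower. At an FDR of 0.01 no member was called, beside 33.3% of all genes tested. The log2 fold changes of the members ran from −0.14 to 0.37 with a median of 0.07, and the median over all genes tested was 0.06. In size, regardless of direction, the median was 0.08 for the members and 0.47 for all genes tested. The 95% intervals of all 9 members lay inside a 2-fold change in either direction, which 55.5% of tested genes did. For 5 members, SPTLC2, CERS2, CERS5, DEGS1 and UGCG, the interval lay inside a 1.5-fold change, which was so for 20.3% of tested genes. In bulk RNA of this kind, fewer cells of a type and less RNA per cell cannot be told apart.

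**Figure D1:**
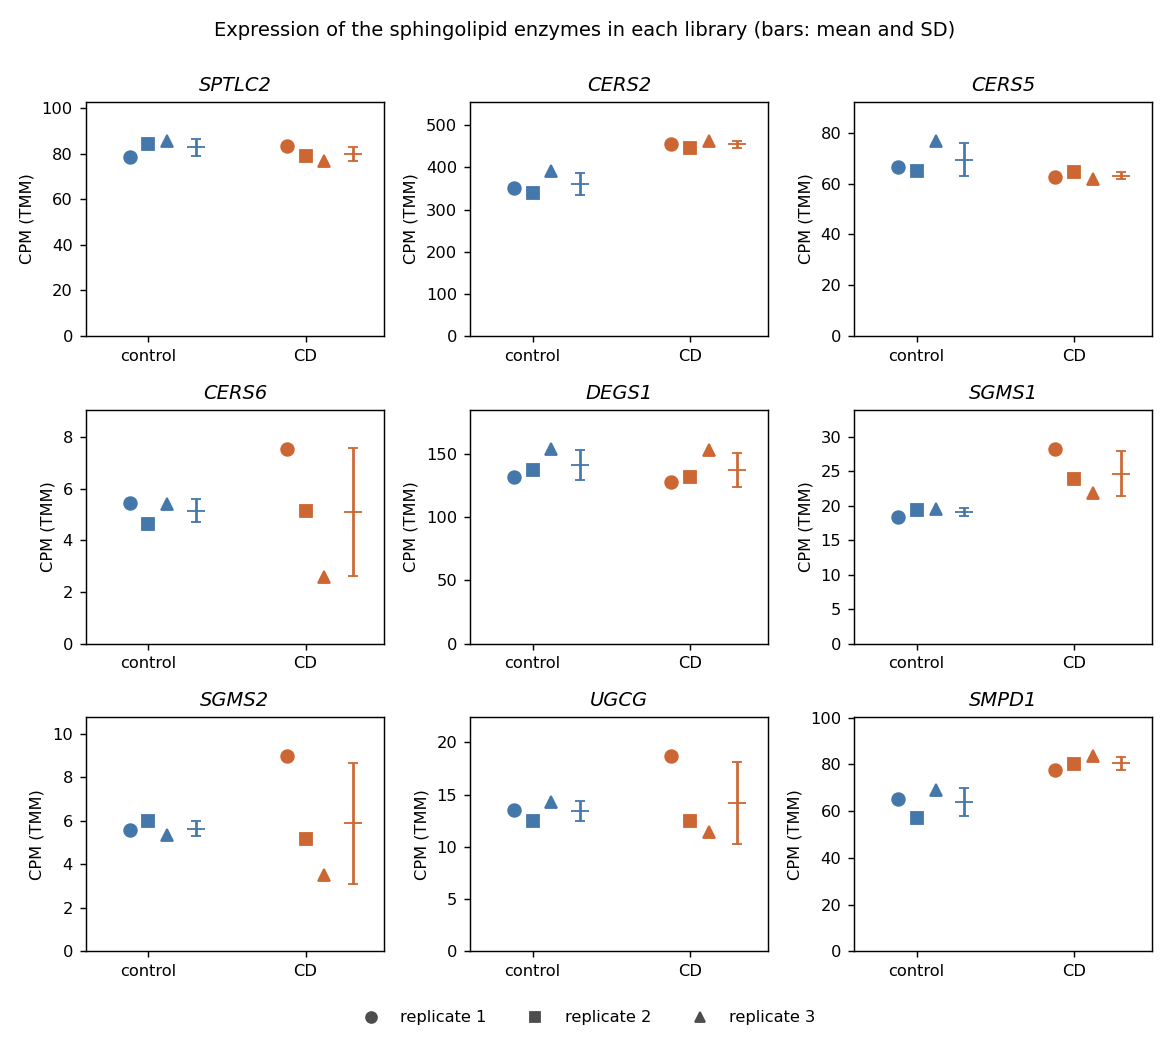
CPM with TMM scaling of the 9 measured enzymes in each of the 3 control (blue) and 3 CD (orange) libraries, with marker shape giving the replicate and bars giving the group mean and SD on a linear axis from 0. All CD libraries lie above all control libraries for CERS2, SGMS1 and SMPD1, and the CD libraries spread widely for CERS6, SGMS2 and UGCG.

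SPTLC2 encodes the catalytic subunit of serine palmitoyltransferase, the enzyme that commits serine and palmitoyl-CoA to sphingolipids. Its level was 78.5, 84.4 and 85.6 CPM in control replicates 1, 2 and 3 and 83.3, 79.1 and 76.9 CPM in CD replicates 1, 2 and 3, so that the groups overlapped. The log2 fold change was −0.05 with a 95% interval of −0.30 to 0.19 (edgeR FDR 0.704). SPTLC1, its obligate partner, could not be set beside it.

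CERS2 encodes the ceramide synthase that prefers very long acyl chains. It measured 352, 340 and 390 CPM in control and 456, 447 and 463 CPM in CD, with every CD library above every control library. Non-overlapping groups of this kind, in either direction, occurred for 58.0% of tested genes, with CD all above for 29.5% and all below for 28.6%. The mean rose from 361 ± 26.2 to 455 ± 8.24 CPM (SD, n = 3), a 1.26-fold change with a 95% interval of 1.07 to 1.49 (log2 0.34, SE 0.11, edgeR FDR 0.0273). CERS2 remained called in 10 of 14 alternative settings. It lost the call without control replicate 1 (log2 0.31, FDR 0.128), without control replicate 2 (0.29, FDR 0.113) and without CD replicate 2 (0.32, FDR 0.0857). Without CD replicate 3 it kept the call at 0.29 (FDR 0.0212).

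CERS5 and CERS6 encode ceramide synthases that prefer shorter, palmitoyl chains. CERS5 measured 66.7, 64.8 and 76.8 CPM in control and 62.6, 64.6 and 61.9 CPM in CD. Every CD library was below every control library, though the closest pair differed by little, and the log2 fold change of −0.14 (SE 0.12) was not called (edgeR FDR 0.348) and was −0.06 (FDR 0.75) without control replicate 3. CERS6 measured 5.45, 4.63 and 5.40 CPM in control and 7.56, 5.15 and 2.59 CPM in CD, which is both the highest and the lowest library of the 6 within the CD group. Its log2 fold change was −0.01 with a wide 95% interval of −0.74 to 0.72 (edgeR FDR 0.986).

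DEGS1 encodes the desaturase that converts dihydroceramide to ceramide, the last step of synthesis in the endoplasmic reticulum. Its level was 132, 137 and 154 CPM in control and 127, 131 and 153 CPM in CD. The groups overlapped almost fully, and the log2 fold change was −0.04 with a 95% interval of −0.31 to 0.23 (edgeR FDR 0.8).

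SGMS1 and SGMS2 encode the sphingomyelin synthases, which transfer phosphocholine to ceramide in the Golgi and, for SGMS2, mostly at the plasma membrane. SGMS1 measured 18.4, 19.3 and 19.6 CPM in control and 28.3, 23.9 and 21.8 CPM in CD, so that all CD libraries lay above control while the CD libraries differed among themselves. The mean went from 19.1 ± 0.601 to 24.7 ± 3.32 CPM (SD, n = 3). Its log2 fold change of 0.37 (95% interval 0.03 to 0.70) was the largest of the set in size, yet it was not called (edgeR FDR 0.0663), and 40.5% of tested genes changed by no more than that. Of the 14 alternative settings SGMS1 was called in 1, without CD replicate 3, at 0.41 (FDR 0.0138), and without CD replicate 1 it was 0.27 (FDR 0.149). SGMS2 measured 5.59, 6.0 and 5.34 CPM in control and 8.97, 5.15 and 3.53 CPM in CD, with CD libraries on both sides of the control libraries. Its log2 fold change was 0.07 with a 95% interval of −0.61 to 0.75 (edgeR FDR 0.869).

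UGCG encodes glucosylceramide synthase, which opens the branch to glycosphingolipids. It measured 13.5, 12.4 and 14.3 CPM in control and 18.7, 12.5 and 11.4 CPM in CD, again on both sides of control. The log2 fold change was 0.08 with a 95% interval of −0.39 to 0.54 (edgeR FDR 0.78).

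SMPD1 encodes acid sphingomyelinase, the lysosomal enzyme that splits sphingomyelin into ceramide and phosphocholine. Its level was 65.1, 57.2 and 69.2 CPM in control and 77.6, 80.1 and 83.5 CPM in CD, with no overlap of the groups. The mean rose from 63.8 ± 6.12 to 80.4 ± 2.98 CPM (SD, n = 3), which is 1.26-fold with a 95% interval of 1.05 to 1.51 (log2 0.33, SE 0.12, edgeR FDR 0.0406). The call of SMPD1 held in only 6 of 14 alternative settings. It was lost with DESeq2 (log2 0.31, FDR 0.0677), without control replicate 1 (0.34, FDR 0.12), 2 (0.25, FDR 0.169) or 3 (0.39, FDR 0.062) and without CD replicate 2 (0.31, FDR 0.122). It was kept without CD replicate 3 (0.27, FDR 0.0386). Over these alternatives the direction was higher in CD for CERS2, SGMS1 and SMPD1 in every one.

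**Figure D2:**
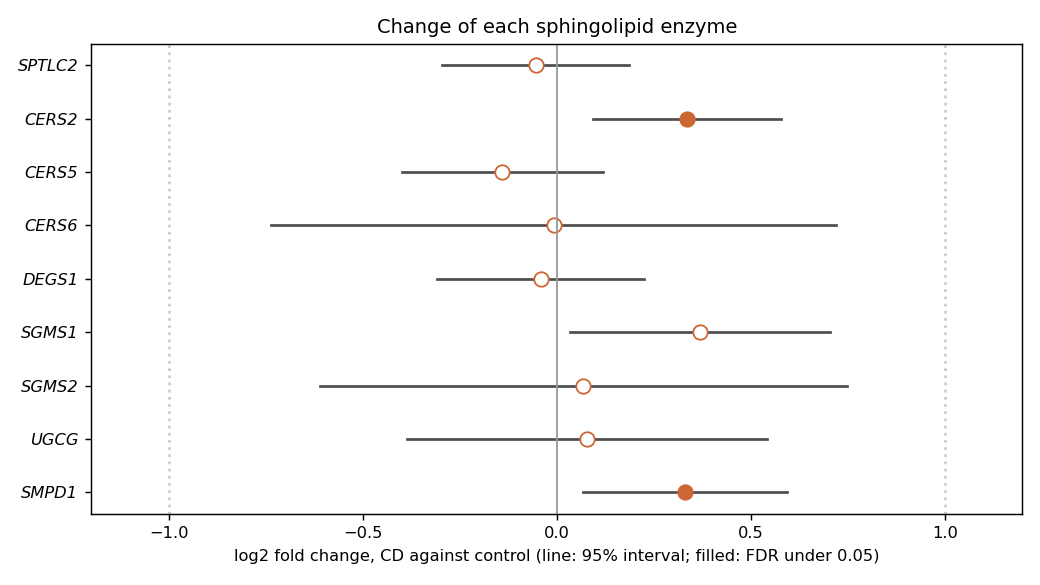
Log2 fold change of each enzyme in CD against control with its 95% interval, filled where the edgeR FDR was under 0.05 and with dotted lines at a 2-fold change. CERS2 and SMPD1 are filled, and the intervals of CERS6 and SGMS2 are the widest, reaching from −0.74 to 0.72 and from −0.61 to 0.75.

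CERS6, SGMS2 and UGCG shared a wide spread among the CD libraries that the control libraries did not have. The coefficient of variation in CD was 48.7% for CERS6, 47.5% for SGMS2 and 27.8% for UGCG, and in control it was 8.93%, 5.86% and 7.08%. Over all tested genes the median was 17.0% in CD and 8.80% in control, and 4.49%, 5.03% and 23.0% of tested genes had a larger CD value than CERS6, SGMS2 and UGCG. Against the mean of the control libraries, CERS6 stood at a log2 difference of 0.56, 0.00 and −0.99 in CD replicates 1, 2 and 3. SGMS2 stood at 0.67, −0.13 and −0.68, and UGCG at 0.48, −0.11 and −0.24, so that in each of these genes CD replicate 1 was the highest library and CD replicate 3 the lowest.

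CD replicate 3 was the lowest CD library for 6 members, SPTLC2, CERS5, CERS6, SGMS1, SGMS2 and UGCG, and the highest for CERS2, DEGS1 and SMPD1. Over all tested genes it was lowest for 41.0% and highest for 40.1%. The direction of CERS6, SGMS2 and UGCG depended on which CD library was left out. Without CD replicate 3 their log2 fold changes were 0.26 (edgeR FDR 0.298), 0.29 (FDR 0.253) and 0.17 (FDR 0.401). Without CD replicate 1 they were −0.39 (FDR 0.274), −0.36 (FDR 0.211) and −0.16 (FDR 0.443). CD replicate 3 also had the largest shares of unmapped reads and of reads outside annotated features (25.4% against 21.9% and 21.6%) in its group, and the part of these in the spread was not tested. With CD replicate 3 left out, 3 members were called, CERS2, SGMS1 and SMPD1, all higher, beside 58.6% of all tested genes.

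**Figure D3:**
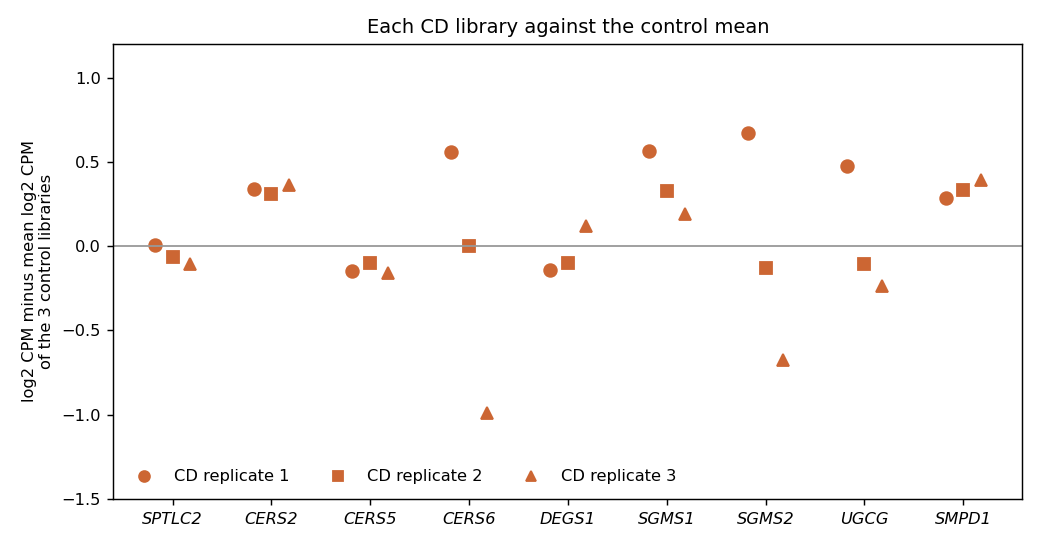
Log2 CPM of each CD library minus the mean log2 CPM of the 3 control libraries, for each enzyme, with marker shape giving the CD replicate. The 3 CD libraries lie close together for SPTLC2, CERS2, CERS5 and SMPD1, and they run from 0.56 to −0.99 for CERS6 and from 0.67 to −0.68 for SGMS2.

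Enzymes that share a reaction or a substrate were set against each other within each library, where the scaling between libraries cancels. The level of such a ratio also depends on the lengths of the transcripts, so that only its difference between groups is read. The log2 ratio of CERS2 to CERS5 was 2.40, 2.39 and 2.34 in control and 2.86, 2.79 and 2.90 in CD. It was thus higher in all CD libraries, with a difference of 0.47 (2.38 ± 0.03 against 2.85 ± 0.06, SD, n = 3). The exact two-sided permutation test gave p = 0.1, the smallest value that 3 against 3 libraries allow, and 0.8 after Benjamini-Hochberg adjustment over the 8 pairs compared.

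The other pairs overlapped between the groups. The difference was 0.47 for CERS2 to CERS6 (exact permutation p = 0.5) and −0.00017 for CERS5 to CERS6 (exact permutation p = 1). Among the enzymes that draw on ceramide, SGMS1 to SGMS2 differed by 0.40 (exact permutation p = 0.4), SGMS1 to UGCG by 0.31 (exact permutation p = 0.2) and SGMS2 to UGCG by −0.09 (exact permutation p = 0.7). For the making against the splitting of sphingomyelin, SGMS1 to SMPD1 differed by 0.02 (exact permutation p = 1) and SGMS2 to SMPD1 by −0.38 (exact permutation p = 0.5). The size of the difference in pairs that hold CERS6 or SGMS2 depended on which CD library was left out. CERS2 to CERS6 differed by 0.05 without CD replicate 3 and by 0.81 without CD replicate 1, SGMS1 to SGMS2 by 0.18 and 0.65, and SGMS2 to SMPD1 by −0.04 and −0.75. No pair could reach 0.05 in this design, and a p above it does not show that the enzymes of a pair moved alike.

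The genes whose pattern over the 6 libraries lay nearest to that of CERS2, the called member with the largest rise, were MAEA, SCARB2 and ARHGEF7, at Euclidean distances of 0.0804, 0.0818 and 0.0983 in centered log2 CPM. MAEA encodes a subunit of a ubiquitin ligase and rose by 0.31 on the log2 scale (edgeR FDR 0.0345). SCARB2, a lysosomal membrane protein that carries glucocerebrosidase, rose by 0.31 (edgeR FDR 0.0332), and ARHGEF7, an exchange factor for Rac, was not called (0.26, edgeR FDR 0.0564). These genes were picked by closeness to CERS2, so changes near its own follow from the choice and are no separate result.

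Around the set, the wider sphingolipid pathway changed to a degree near that of all tested genes, and it was not tested against the set. Of 78 listed genes of synthesis, breakdown, transfer and signaling, 71 were in the table and 59 were tested, of which 19 rose, 10 fell and 30 were not called. Leaving out the 9 members, 17 rose, 10 fell and 23 were not called, which is 54.0% called beside 47.7% of all tested genes. The median size of their log2 fold change was 0.47, the same as over all tested genes to that precision. The counts by list that follow stand beside 24.8% of all tested genes higher and 22.9% lower. No list was tested against these shares.

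In the first steps of synthesis and their regulators, 3 of the 5 tested genes rose, none fell, and the median log2 fold change was 0.59. ORMDL3, an endoplasmic reticulum protein that restrains serine palmitoyltransferase, measured 77.9, 74.8 and 90.7 CPM in control and 253, 276 and 268 CPM in CD. The groups were far apart, and ORMDL3 rose 3.27-fold (log2 1.71, SE 0.12, edgeR FDR 2.91e-06). Its relative ORMDL1 rose by 0.59 (edgeR FDR 0.0348), a call that was lost without control replicate 1, without control replicate 3 or without CD replicate 3 (0.34 to 0.73 over all libraries left out). SPTSSA, a small subunit that activates the enzyme, rose by 1.13 (edgeR FDR 0.00175), from 21.0, 30.9 and 23.3 CPM to 49.1, 43.4 and 71.8 CPM. KDSR, the reductase that follows, was not called (0.16, FDR 0.399, and 0.06 to 0.21 with 1 library left out). SPTLC3 and SPTSSB, an alternative catalytic and an alternative small subunit, had 0 counts in all 6 libraries, which allows a level of up to 0.0324 CPM (3 counts of 92491742 reads) by counting error alone.

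Among ceramide synthases and desaturases, 1 of 6 tested genes, CERS2, rose and none fell, with a median of −0.09. CERS4, which performs the same reaction, measured 4.80, 4.26 and 4.35 CPM in control and 2.77, 3.07 and 4.11 CPM in CD. All CD libraries were below control, but the log2 fold change of −0.44 was not called (edgeR FDR 0.124), except without CD replicate 3 (−0.65, FDR 0.0181), and it was −0.31 (FDR 0.27) without CD replicate 1. CERS1 and CERS3 had at most 1 count in any library, and DEGS2, the second desaturase, was low and not called (−0.37, FDR 0.35, and −0.59 to −0.13 with 1 library left out). In sphingomyelin synthesis none of the 3 genes was called by edgeR, DESeq2 or limma-voom, and SGMS1 was the 1 gene with an unadjusted p under 0.05 (0.0338). The remaining gene of that list, SAMD8, which makes the related ceramide phosphoethanolamine, had a log2 fold change of 0.59 (edgeR FDR 0.11). It was 0.71 (FDR 0.0147) without CD replicate 3 and 0.35 (FDR 0.311) without CD replicate 1.

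Glycosphingolipid synthesis, with UGCG among its 7 tested genes, had 4 genes higher and 1 lower, with a median of 0.57. B4GALT5, a lactosylceramide synthase, measured 148, 143 and 170 CPM in control and 314, 298 and 206 CPM in CD and rose by 0.83 on the log2 scale (edgeR FDR 0.0022). B4GALT6, its close relative with the same activity, went from 3, 3 and 1 counts in control to 54, 45 and 26 counts in CD (log2 4.05, edgeR FDR 5.96e-05), a change that rests on 7 control counts in all. ST3GAL5, which makes the ganglioside GM3, rose by 0.57 (edgeR FDR 0.00872), and A4GALT, which makes globotriaosylceramide, rose by 1.12 (edgeR FDR 0.0307). The call of A4GALT, at 4 to 23 counts per library, was lost with DESeq2 (FDR 0.11) and without control replicate 1, 2 or 3 or CD replicate 2, with values from 0.84 to 1.32 when 1 library was left out. B4GALNT1, which extends gangliosides to GM2 and GD2, fell by 1.21 (edgeR FDR 0.00198), from 40 to 57 counts in control to 17 to 24 in CD.

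The enzymes that split sphingomyelin, listed with the related gene SMPDL3B, went in different directions. Of 5 tested genes 2 were higher, SMPD1 and SMPDL3B, and 2 were lower. SMPD3, a neutral sphingomyelinase, measured 1185, 1014 and 1313 CPM in control and 163, 166 and 114 CPM in CD. This was the steepest fall in the sphingolipid lists, by 2.98 on the log2 scale (SE 0.18, edgeR FDR 1.26e-06). SMPD4, also a neutral sphingomyelinase, went from 153, 141 and 163 CPM to 49.0, 54.5 and 47.2 CPM and fell by 1.60 (edgeR FDR 4.48e-06). SMPD2, a further neutral sphingomyelinase, was not called (−0.26, FDR 0.152), although without CD replicate 3 it was, at −0.41 (FDR 0.0076), and without CD replicate 1 it stood at −0.17 (FDR 0.36). The acid enzyme SMPD1 and its cell-surface relative SMPDL3B rose, the latter by 1.08 (edgeR FDR 8.45e-05).

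Ceramidases held 1 called gene of 4, ASAH2, the neutral ceramidase, which fell by 1.63 (edgeR FDR 0.000611). ASAH2 had 44 to 72 counts in control and 11 to 22 in CD. Glycosphingolipid hydrolysis had 3 higher and 3 lower genes of 10. The helper proteins GM2A, the GM2 activator, and PSAP, the precursor of the saposins, rose by 0.86 and 0.72 (edgeR FDR 0.000683 and 0.00158). ARSA, a lysosomal sulfatase, rose by 0.38 (edgeR FDR 0.0318). The enzymes GLA, NEU1 and GBA2, an α-galactosidase, a sialidase and a glucosylceramidase, fell by 0.77, 0.49 and 0.41 (edgeR FDR 0.00057, 0.00588 and 0.0168). The calls of ARSA and GBA2 were lost when certain libraries were left out (control replicates 1 and 2 and CD replicate 2 for ARSA, control replicates 1 and 3 for GBA2), with values from 0.29 to 0.47 and from −0.47 to −0.36.

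Of 8 tested genes that phosphorylate sphingosine or ceramide or break down sphingosine-1-phosphate (S1P), SPHK2, a sphingosine kinase, rose by 1.33 (edgeR FDR 2.26e-05) and SGPP2, an S1P phosphatase, fell by 1.69 (edgeR FDR 0.00362). SGPP2 was low, at 17 to 36 counts in control and 5 to 12 in CD. In transfer and transport 4 of 9 genes rose and 1 fell. SPNS2, an exporter of S1P, measured 18.2, 16.4 and 18.1 CPM in control and 2.40, 2.39 and 2.38 CPM in CD and fell by 2.87 (edgeR FDR 1.56e-06). MFSD2B, another S1P exporter, had 0, 3 and 1 counts in control and 31, 22 and 29 counts in CD (log2 4.22, edgeR FDR 0.000187), and the log2 fold change was 5.51 without control replicate 2. The glycolipid carriers GLTP and PLEKHA8 rose by 0.59 and 0.51 (edgeR FDR 0.00362 and 0.00604).

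CERT1, which carries ceramide from the endoplasmic reticulum to the Golgi for sphingomyelin synthesis, measured 4.23, 4.84 and 5.34 CPM in control and 9.46, 5.52 and 4.32 CPM in CD. Like CERS6, SGMS2 and UGCG it was highest in CD replicate 1 and lowest, within the CD group, in CD replicate 3. It was not called (0.42, edgeR FDR 0.249), with 0.05 (FDR 0.871) without CD replicate 1 and 0.60 (FDR 0.0162) without CD replicate 3. VAPA, the membrane anchor to which CERT1 binds, rose by 0.43 (edgeR FDR 0.0166), and the call was lost without control replicate 1 or 3 (0.31 to 0.49 over all libraries left out). Of the S1P receptors tested, S1PR2 rose by 0.96 and S1PR5 fell by 1.47 (edgeR FDR 0.00869 and 0.00552). S1PR5 was low, at 28 to 37 counts in control and 7 to 18 in CD.

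The precursors of the long-chain base are serine and fatty acyl-CoA. In the serine supply list, which also holds SHMT2, an enzyme that uses serine, 5 of 6 tested genes fell. None rose, and the median was −1.35. The remaining gene, PSPH, was not called (0.24, edgeR FDR 0.318, and −0.05 to 0.35 with 1 library left out). PSAT1, an enzyme of serine synthesis, measured 43.7, 42.0 and 42.6 CPM in control and 7.50, 7.79 and 7.71 CPM in CD and fell by 2.48 (SE 0.14, edgeR FDR 7.81e-07). PHGDH, which opens that pathway, fell by 1.22 (edgeR FDR 2.09e-05), SHMT2, which converts serine to glycine, by 1.32 (edgeR FDR 1.18e-05), and the amino acid transporters SLC1A4 and SLC1A5 by 2.05 and 1.38 (edgeR FDR 2.9e-05 and 1.12e-05).

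Fatty acid elongation was mixed, with 2 of 11 tested genes higher, 3 lower and a median of −0.18. ELOVL6, which lengthens palmitoyl chains, rose by 1.18 (edgeR FDR 0.00153), and HSD17B12, a reductase of the elongation cycle, by 0.83 (edgeR FDR 0.000912). ELOVL3 and ELOVL7, further elongases, fell by 2.80 and 0.85 (edgeR FDR 0.000149 and 0.00799), ELOVL3 from 21 to 27 counts in control to 2 to 4 counts in CD. HACD2, a dehydratase of the cycle, fell by 0.44 (edgeR FDR 0.0244), a call lost without control replicate 1, without control replicate 3 and without CD replicate 2 (−0.53 to −0.38 over all libraries left out).

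**Figure D4:**
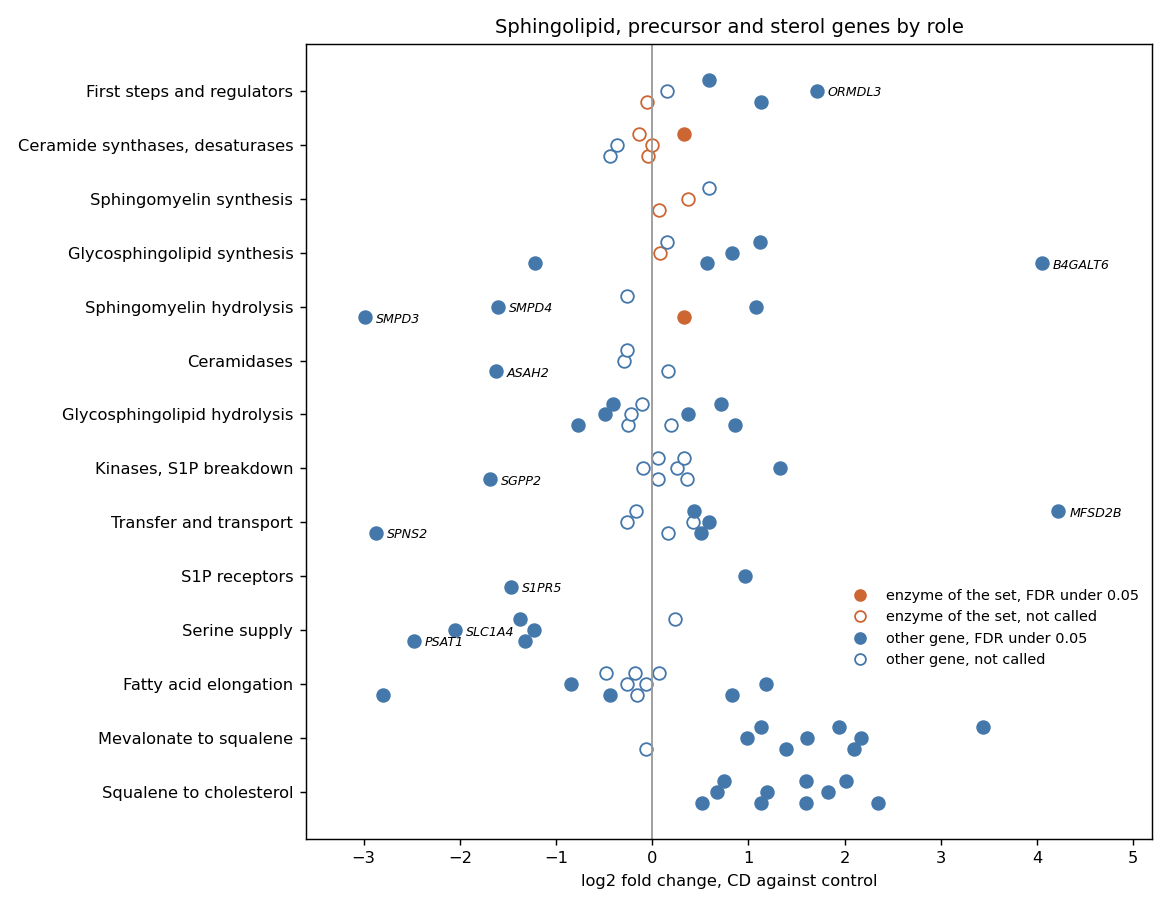
Log2 fold change in CD against control of each tested gene, in rows by role, with the members of the set in orange, all other genes in blue and filled circles where the edgeR FDR was under 0.05. The members lie between −0.14 and 0.37, and 18 of the 19 tested sterol genes in the 2 lowest rows are filled and to the right of 0.

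Sterol synthesis, the pathway that the statin blocks, gives the scale of the response in the same libraries. From acetyl-CoA to squalene 8 of 9 tested genes rose and none fell, with a median of 1.61, and from squalene to cholesterol 10 of 10 rose, with a median of 1.40. Together 94.7% were called, beside 22.2% of the sphingolipid enzymes of the set and 47.7% of all tested genes. Of these, DHCR7 lost the call without control replicate 1, control replicate 2 or CD replicate 2, with values from 0.44 to 0.66 when 1 library was left out. These shares were set side by side with no test between the lists.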

How the data were processed

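The authors isolated poly(A) mRNA, made libraries with the Nextera XT kit, trimmed reads with fastp 0.20.1, aligned them to the mink assembly NNQGG.v01 with STAR 2.7.2a and compared groups with DESeq2 1.30.1 in R 4.0.3. The program that counted reads, and whether it used strand, are not given in the sources used here, so genes that overlap others or have near-identical copies are uncertain. The authors deposited raw counts per gene, with 4 rows that name no gene (unmapped, multimapped, no feature, ambiguous), 29.3% to 47.2% of the reads of a library, which were left out. The 6 normalized files were not used, because by gene identifier their values did not correlate with the counts (Spearman at most 0.00674 in size).

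Counts were tested with edgeR 4.0.16 in R 4.3.3 (filterByExpr with a minimum count of 10, TMM, robust glmQLFit, glmQLFTest, condition as the only term, all 6 libraries), with Benjamini-Hochberg adjustment over 12148 genes and calls at an FDR of 0.05. Without adjustment, 6646 genes (54.7%) and 3 members had p under 0.05. The SE is the log2 fold change divided by the square root of F, with a median of 0.18 over tested genes. CPM used the TMM library sizes. Ratios used a prior count of 2 and an exact two-sided permutation test. Of 9 pairs planned, SPTLC1 with SPTLC2 could not be computed. Alternatives were DESeq2 1.42.0, limma-voom (limma 3.58.1), DESeq2 size factors, upper quartile and total-count scaling, no filter, at least 50 counts in each of 3 libraries, a block for the replicate number and each library left out (14 per gene), an FDR of 0.01 for counts of genes and a prior count of 0.5 for ratios. Scripts were tested on simulated data.

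The members and the 14 lists of other genes were chosen with earlier results of these data known. Members were matched by symbol only, and 13 genes of the other lists by the table's gene description (for example ORML3 for ORMDL3). Named genes are the members, up to 3 called genes per list and direction with the largest change, genes of the same reaction as a member, HMGCS1 and INSIG1 as a check of the treatment, and the 3 genes nearest in pattern to the called member with the largest rise. SAMD8, ST3GAL5, CERT1, VAPA, PHGDH, SHMT2, PSPH, KDSR, SPTLC3, SPTSSB, CERS1, CERS3 and DHCR7 were named after their values were seen. Some genes are not reported here. The annotation at hand is of assembly ASM_NN_V1, so no coordinates, lengths or sequences are given.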

Additional observations from a re-analysis of the deposited data

How the results depend on the processing

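The rise of CERS2 kept its direction in all 14 alternatives, at log2 0.29 to 0.39 with 1 library left out. SMPD1 likewise stayed higher in CD (0.25 to 0.39 with 1 library left out) but was no longer called with DESeq2 (0.31), DESeq2 size factors (0.31) or no filter (0.33). The labels number the replicates of both groups. The deviations of same-numbered libraries from their group means had correlations of −0.024, −0.329 and −0.185. Deviations within a group of 3 libraries constrain one another, so these values cannot decide whether libraries of the same number were paired. With that number as a block, CERS2 (0.34) and SMPD1 (0.34) lost their calls, SGMS2 and, as its value was the middle one, the median of the members turned to −0.0268 (−0.0262 with limma-voom), and the number of members called higher went from 2 to 0. That number was 1 with DESeq2, DESeq2 size factors and no filter, 0 at an FDR of 0.01, and 0 to 3 with 1 library left out. With 1 library left out, SPTLC2 ran from −0.10 to −0.03, CERS5 from −0.19 to −0.06, SGMS1 from 0.27 to 0.41, CERS6 from −0.39 to 0.26, DEGS1 from −0.16 to 0.0254, SGMS2 from −0.36 to 0.29, UGCG from −0.16 to 0.17 and the median of the members from −0.0754 to 0.26. CERS6 was 0.0263 under upper-quartile and 0.0231 under total-count scaling. For the ratios, CERS5 to CERS6 was 0.0055 with a prior count of 0.5 and ran from −0.39 to 0.34 with 1 library left out, SGMS2 to UGCG from −0.22 to 0.0811 and SGMS1 to SMPD1 from −0.10 to 0.14. With a minimum of 50 counts 6 instead of 10 genes of the sphingolipid lists were lower, since fewer genes were tested. At an FDR of 0.01, 2006 genes were higher and 2036 lower, against 3016 and 2784. Causes of the other changes were not tested. At 36 to 7422 counts per library, the SE of a member was 0.11 to 0.33, so that small changes of CERS6 and SGMS2 were not detectable at this depth and spread.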
